A study of Mus musculus with 8 samples.

Results

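Adgrg5, Plac8, Lcn4, Cxxc5, Tmem108, Ggt1, Kcna2, Fam241a and Trnp1 are 9 of the 32285 genes counted in single T cells from the pancreas of diabetic NOD mice. They were picked because they led clusters called resting CD8 T cells in these same data, that is, they were selected on their UMI counts (unique molecules) in these cells, so their excess there is given here as a description and carries no test. Treatment was not used to choose them, and that comparison was tested. For Trnp1, 950 of 1246 UMIs in resting CD8 cells came from 1 PPCA library, so its choice may not be free of treatment.

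NOD is an inbred mouse strain whose T cells infiltrate the pancreatic islets and cause diabetes. By the labels, all libraries came from female NOD mice (4 libraries go against this, as given with the depths) with spontaneous new-onset diabetes, listed as 3 to 4 months of age in the sample characteristics and 3 to 5 months in the treatment protocol. The study asked how autoreactive T cells respond to PPCA, a pair of drugs made of a p53 potentiator (nutlin-3, an MDM2 inhibitor, at 50 mg/kg) and a cell cycle disruptor (MK-1775, a Wee1 inhibitor, at 25 mg/kg). There were 3 PPCA and 3 vehicle libraries (ethanol, Tween 20 and PEG300), 1 of each from days 2, 3 and 4, and 1 untreated library each of onset diabetes, with blood glucose of 250 mg/dl, and active diabetes, with over 600 mg/dl, both taken on day 1. T cells positive for CD45, CD3 and the TCR beta chain were sorted and frozen, and libraries were made with a 10x Genomics 3′ kit. The series describes 1 to 3 days of therapy and the labels name days 2 to 4, and how these scales match is not stated. The number of mice behind a library is not stated either, so p-values measure the spread between these libraries.

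Naive CD8 T cells circulate through lymph nodes under the control of Lef1, Tcf7 and Klf2 and carry the homing receptor Ccr7. On activation they lose it and gain chemokines and cytotoxic proteins such as Ccl5, Gzmk and Nkg7, and Ccl5 is retained by memory cells. The genes described here have different known roles. Adgrg5 encodes an adhesion G protein-coupled receptor, Lcn4 a lipocalin (a family of small secreted carriers of lipophilic molecules) and Ggt1 the cell-surface enzyme that cleaves the gamma-glutamyl bond of glutathione. Kcna2 encodes a voltage-gated potassium channel subunit best known in neurons, and Tmem108 a membrane protein also studied in neurons. Cxxc5 encodes a zinc finger protein that binds unmethylated CpG, Trnp1 a nuclear protein studied in neural progenitors, and Plac8 a small cysteine-rich protein. Fam241a encodes a small protein that is little characterised.

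The 8 matrices held 80470 cell barcodes and 419420275 UMIs, between 36934580 and 67603740 per library, and 77229 cells passed the T cell gate. CD8 cells, with UMIs of Cd8a or Cd8b1 but not of Cd4, were divided into 17377 cells without a Ccl5 UMI (1137 to 3249 per library, here called resting CD8) and 7258 with at least 1 (510 to 1803, Ccl5-positive CD8). CD4 cells numbered 29309, and 18736 T cells with neither and 4549 with both coreceptors were set aside. Median depth was 4457 to 7333 UMIs per cell in resting CD8, 4148 to 7016 in Ccl5-positive CD8 and 3899.5 to 6198 in CD4 cells. Any pair of libraries shared 14 to 41 barcodes, at most 0.431% of the smaller library. The labels call all mice female. But in the sum of the 3 subsets, 4 libraries held Y-linked transcripts at 188 to 272 CPM (the usual count scale, set by the total UMIs of each sum). These were labelled vehicle day 2, vehicle day 3, PPCA day 3 and PPCA day 4, and had Xist below 1. The other 4 libraries had Xist at 426 to 632 CPM. On days 2 and 4 this difference runs between the 2 arms, so within those days it and treatment cannot be told apart.

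The resting label was checked against genes with known roles. In resting CD8 cells Lef1 averaged 721 CPM ± 58.7 (SD, n = 8) and Ccr7 268 ± 57.8, and the effector granzyme Gzmk averaged 0.67 ± 0.45. In Ccl5-positive CD8 cells Lef1 averaged 361 CPM ± 50.7 and Gzmk 118 ± 45.7 (SD, n = 8). Nkg7, a cytotoxic granule protein, was present in resting CD8 cells at 489 CPM ± 70.0, against 1184 ± 208 in Ccl5-positive cells and 36.5 ± 14.3 in CD4 cells. Of the 15 listed naive and quiescence genes, 13 had a mean log2 ratio above 0 in resting over Ccl5-positive cells (median 0.60) and 5 over CD4 cells (median -0.18). Of the 18 listed effector CD8 genes, 0 were above Ccl5-positive cells (median -3.33) and 10 above CD4 cells (median 0.35), and their summed level was 872 to 1172 CPM in resting, 2641 to 4579 in Ccl5-positive and 259 to 508 in CD4 cells. The resting cells thus held less effector RNA than Ccl5-positive cells, but were not without it.

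The sequence upstream of the start sites is shown because the genes were picked for a shared pattern across cell subsets and naive T cells are known for the TCF and LEF factors, whose core motif is TCAAAG. Of the 9 genes, 8 had start sites in the RefSeq promoter table (GRCm38.p6), 13 in all, and the 250 bases upstream of each were searched on both strands. TCAAAG was in 4 of these 13 windows, those of Lcn4, Kcna2 and Ggt1 (2 starts), against 13.8% of all 32851 windows in the table. CCACACCC, a motif of Kruppel-like factors, was in 2 windows (Lcn4 and Plac8, against 3.20% of all), AGGAAG, an ETS motif, in 2 against 29.5%, and TGTTTAC, a forkhead motif, in 0 against 3.17%. These are matches of letters and not measured binding sites. The Lcn4 window (chr2:26671283-26671532, minus strand) and the first Ggt1 window (chr10:75563882-75564131, plus strand) hold TCAAAG on the opposite strand, so that the capitals in the printed strand are its reverse complement, 184 and 233 bases from the start site, and the Trnp1 window (chr4:133498551-133498800, minus strand), shown because this gene behaves unlike the others below, holds none of the 4 motifs. None of these 3 windows overlaps an annotated exon. The genome build used for the counts is not given in the sources used here. Each runs 5′ to 3′ and ends at the base before the start site.
Lcn4: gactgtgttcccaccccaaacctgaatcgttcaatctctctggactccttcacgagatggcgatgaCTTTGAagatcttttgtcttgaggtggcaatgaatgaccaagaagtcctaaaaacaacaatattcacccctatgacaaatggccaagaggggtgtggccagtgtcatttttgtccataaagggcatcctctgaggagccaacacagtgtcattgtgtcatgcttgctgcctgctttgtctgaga
Ggt1: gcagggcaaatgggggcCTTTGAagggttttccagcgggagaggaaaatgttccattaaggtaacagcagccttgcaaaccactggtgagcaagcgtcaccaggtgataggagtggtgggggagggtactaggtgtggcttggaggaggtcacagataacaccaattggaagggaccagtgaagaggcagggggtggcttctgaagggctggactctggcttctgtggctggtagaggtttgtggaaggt
Trnp1: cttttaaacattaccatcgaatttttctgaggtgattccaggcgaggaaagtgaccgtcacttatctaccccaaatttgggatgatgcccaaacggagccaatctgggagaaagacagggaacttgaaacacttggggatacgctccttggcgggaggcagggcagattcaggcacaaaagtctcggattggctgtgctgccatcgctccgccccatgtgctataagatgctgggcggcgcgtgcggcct

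All 9 genes were higher in resting CD8 than in CD4 cells in 8 of 8 libraries, and 8 of them were also higher than in Ccl5-positive CD8 cells in 8 of 8. These are the contrasts by which the genes were chosen. Among 7315 genes averaging at least 10 CPM over libraries and subsets, 0.328% exceeded a mean 2-fold excess in resting over Ccl5-positive CD8 cells. Of the 9 genes 5 did, including Kcna2 and Trnp1, which average below 10 CPM and are not among the 7315. Both also enter the values of the 9 genes over CD4 cells and the medians below. Over CD4 cells the share was 1.18% of all genes, and 9 of 9 here. The median log2 ratio was 1.14 over Ccl5-positive CD8 cells and 3.96 over CD4 cells, against -0.084 and -0.073 for all 7315 genes. In sums over cells, fewer expressing cells and less RNA per cell cannot be told apart.

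**Figure D1:**
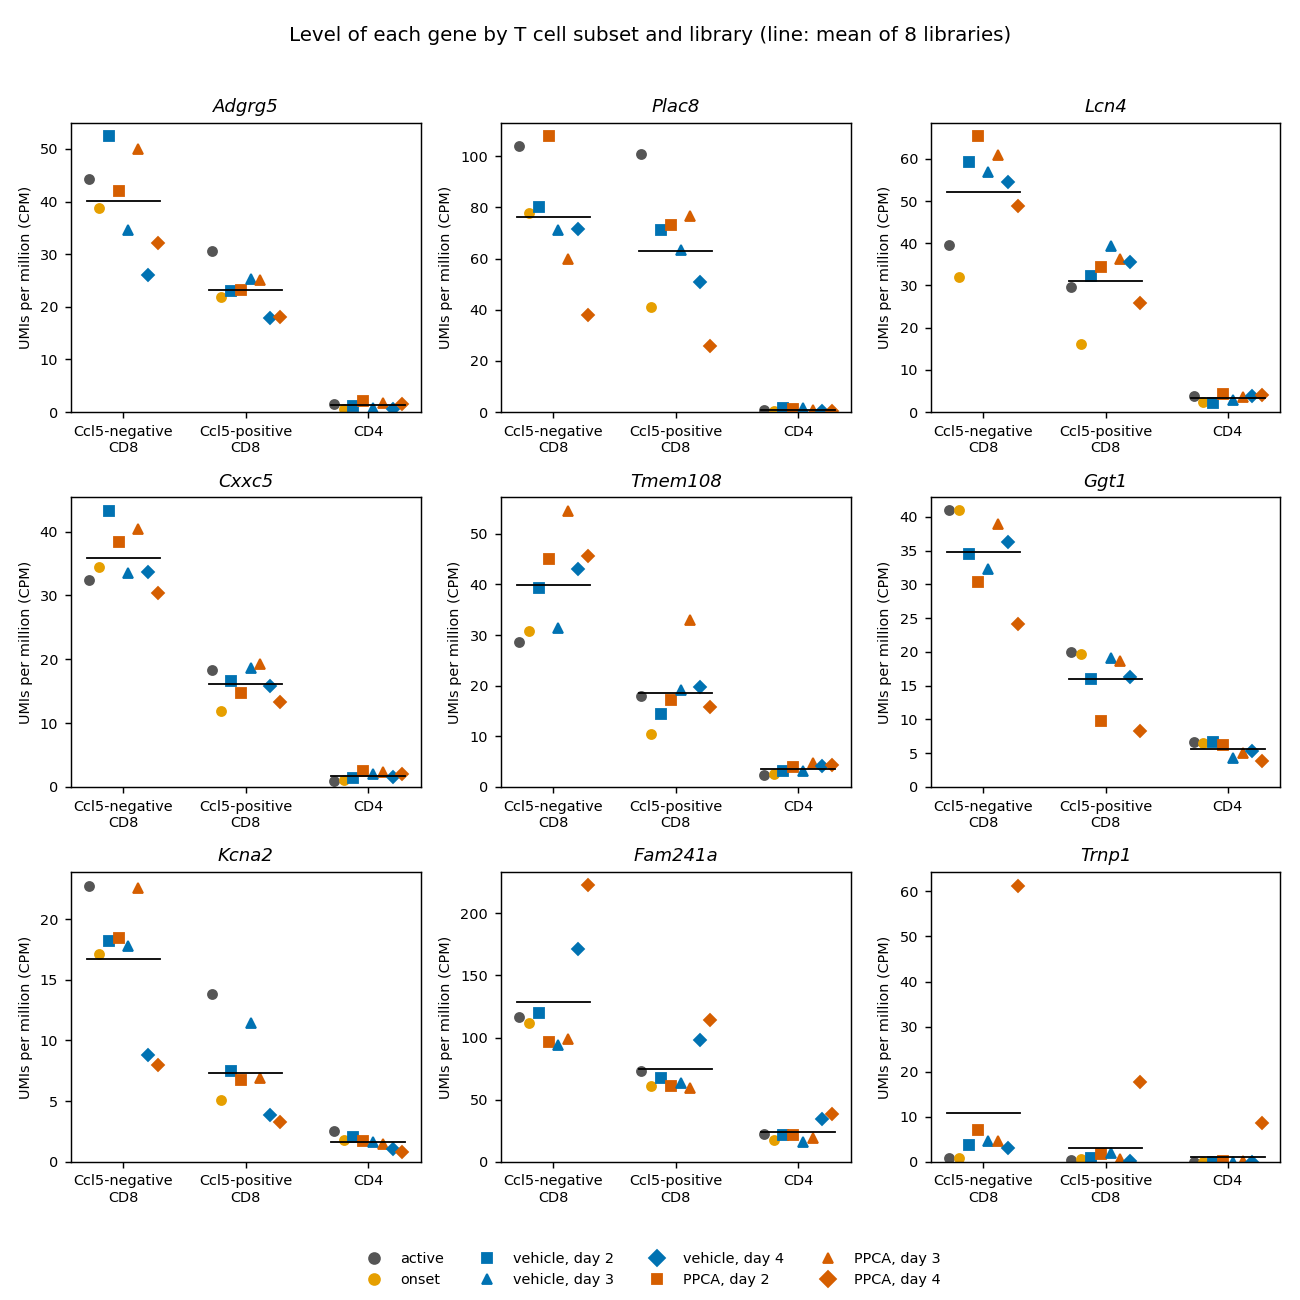
Level of each gene in CPM (vertical axis, from 0) in resting (Ccl5-negative) CD8, Ccl5-positive CD8 and CD4 cells. Each point is 1 of 8 libraries, coloured by group and shaped by day, and the line is the mean. The CD4 points lie lowest for every gene except Trnp1, whose levels overlap between subsets, and the PPCA library of day 4 stands alone for Trnp1 at 61.2 CPM in resting CD8 cells.

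Among the surface and secreted proteins, the receptor gene Adgrg5 ranged from 26.0 to 52.4 CPM in resting CD8 cells (median 40.4), from 17.9 to 30.5 in Ccl5-positive CD8 cells (median 23.1) and from 0.55 to 2.13 in CD4 cells (median 1.40). Its CD4 libraries were all below its CD8 libraries, while the resting and Ccl5-positive ranges overlapped. The mean log2 ratio of resting to Ccl5-positive cells was 0.78 ± 0.25 and that of resting to CD4 cells 5.09 ± 0.59 (SD, n = 8). Lcn4, the lipocalin gene, ranged from 32.0 to 65.4 CPM in resting CD8 cells (median 55.6), with its lowest values in the onset and active libraries. It ranged from 16.1 to 39.4 in Ccl5-positive CD8 cells and from 2.08 to 4.38 in CD4 cells, with log2 ratios of 0.75 ± 0.21 and 3.96 ± 0.45. Tmem108 ranged from 28.6 to 54.6 CPM in resting cells (median 41.2), from 10.4 to 33.1 in Ccl5-positive cells and from 2.44 to 4.78 in CD4 cells. Its resting to CD4 log2 ratio varied little between libraries, at 3.50 ± 0.11, and its resting to Ccl5-positive ratio was 1.14 ± 0.39.

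Ggt1, the glutathione-cleaving enzyme gene, ranged from 24.1 to 41.0 CPM in resting cells (median 35.4) and from 8.29 to 20.0 in Ccl5-positive cells (median 17.5). The lowest resting library thus lay above the highest Ccl5-positive library, as for Cxxc5 and for no other of the 9 genes. In CD4 cells Ggt1 ranged from 3.85 to 6.72 CPM, and its log2 ratios were 1.17 ± 0.29 over Ccl5-positive cells and 2.65 ± 0.24 over CD4 cells (SD, n = 8). Of the 11 other listed genes of glutathione handling with enough UMIs, 4 had a mean log2 ratio above 0 over Ccl5-positive cells, 3 over CD4 cells and 1 over both, with medians of -0.19 and -0.19. Ggt5, a second gamma-glutamyl transferase gene, was above Ccl5-positive cells (1.09 ± 0.28) but below CD4 cells (-1.03 ± 0.27), and Gclc, a subunit of the enzyme that starts glutathione synthesis, was at -0.19 ± 0.13 and -0.19 ± 0.12.

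Kcna2, the potassium channel gene, was low: 7.98 to 22.8 CPM in resting cells (median 18.0), 3.27 to 13.9 in Ccl5-positive cells and 0.80 to 2.54 in CD4 cells. Both day 4 libraries were the lowest in each of the 3 subsets. Its log2 ratio was 1.26 ± 0.41 over Ccl5-positive cells and 3.35 ± 0.29 over CD4 cells. Of the 7 other listed potassium channel genes with enough UMIs, 1 had a mean log2 ratio above 0 over Ccl5-positive cells, 2 over CD4 cells and none over both. For the channels for which T cells are known, the log2 ratio over Ccl5-positive cells was -0.50 ± 0.40 for the voltage-gated channel gene Kcna3 and 0.19 ± 0.12 for the calcium-activated channel gene Kcnn4 (SD, n = 8). Over CD4 cells it was 0.65 ± 0.27 for Kcna3 and -0.36 ± 0.073 for Kcnn4.

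Of the intracellular proteins, Cxxc5 ranged from 30.5 to 43.2 CPM in resting cells (median 34.1), from 12.0 to 19.3 in Ccl5-positive cells and from 0.93 to 2.52 in CD4 cells, so that the 3 subsets did not overlap. Its log2 ratios were 1.17 ± 0.26 and 4.42 ± 0.50. Of the 10 other listed genes of CXXC or CpG-binding proteins with enough UMIs, 2 had a mean log2 ratio above 0 over Ccl5-positive cells and none over CD4 cells, with medians of -0.12 and -0.17. The highest over Ccl5-positive cells, Tet1, which encodes a DNA demethylase, had a resting to Ccl5-positive log2 ratio of 1.02 ± 0.40 but a resting to CD4 ratio of -0.29 ± 0.25. Fam241a ranged from 93.6 to 223 CPM in resting cells (median 114), from 59.6 to 114 in Ccl5-positive cells and from 15.6 to 38.5 in CD4 cells, and both day 4 libraries were the highest in every subset. Its log2 ratios, 0.76 ± 0.13 and 2.44 ± 0.16, had a small spread although the level itself moved between libraries.

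Plac8 had the smallest mean difference of the 9 genes between resting and Ccl5-positive cells. It ranged from 37.9 to 108 CPM in resting cells (median 74.6), from 25.8 to 101 in Ccl5-positive cells (median 67.4) and from 0.36 to 1.61 in CD4 cells. The resting to Ccl5-positive log2 ratio was 0.32 ± 0.40, above 0 in 7 of 8 libraries, PPCA day 3 being the exception at -0.36. The resting to CD4 log2 ratio of 6.56 ± 0.75 was the largest of the 9 genes.

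The level of Trnp1 was high in 1 library, although resting cells were above CD4 cells in 8 of 8. In resting cells it was at 0.77 CPM in the active, 0.89 in the onset, 3.75, 4.56 and 2.99 in the vehicle and 7.06, 4.54 and 61.2 in the PPCA libraries (days 2, 3 and 4). In CD4 cells it had no UMI in 4 libraries, with its maximum of 8.72 CPM in PPCA day 4. Its log2 ratios of 1.57 ± 0.71 over Ccl5-positive cells and 3.97 ± 1.09 over CD4 cells raise 3 and 6 libraries with fewer than 3 UMIs to 3 UMIs, and in PPCA day 4 the ratio over CD4 cells was 2.81.

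In the T cells outside these gates, cells with neither coreceptor detected were below Ccl5-positive CD8 cells in 8 of 8 libraries for 9 of 9 genes. Adgrg5 was there between 0.99 and 5.58 CPM, above the CD4 level in 8 of 8 libraries, and Plac8 between 0.27 and 3.16, above it in 7 of 8, while Ggt1 was above it in 1 of 8. In cells with UMIs of both coreceptors, which can be 2 cells in 1 droplet, Adgrg5 lay between 9.20 and 23.8 CPM and Plac8 between 12.9 and 39.0. Cells with both were below resting cells in 8 of 8 libraries for 9 of 9 genes, and below Ccl5-positive cells in 8 of 8 for 4 of 9.

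Per cell, the genes were sparse. After thinning every cell to 2000 UMIs (164 of 17377 resting, 153 of 7258 Ccl5-positive and 324 of 29309 CD4 cells were too shallow), 47.4% to 61.6% of resting cells (median 53.1%) had a UMI of at least 1 of the 9 genes. The range was 23.1% to 35.4% for Ccl5-positive CD8 and 6.53% to 11.2% for CD4 cells, the lowest share of the 3 subsets. At least 2 of the genes were seen in 14.9% to 21.0% of resting, 4.65% to 8.92% of Ccl5-positive and 0.0969% to 0.486% of CD4 cells. By gene, the median share of resting cells was highest for Fam241a (19.6% thinned, 44.7% unthinned) and Plac8 (10.7% and 26.0%), and for Adgrg5 it was 7.36% against 0.239% in CD4 cells (19.0% against 0.640% unthinned).

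The split at 1 Ccl5 UMI was then opened up, because a few Ccl5 UMIs can come from free RNA. CD8 cells just above the threshold, with 1 Ccl5 UMI, were set against cells with 0. They were lower in 4 of 8 libraries for Adgrg5 and for Tmem108 and in 2 of 8 for Lcn4. Adgrg5 averaged 39.0 CPM ± 6.34 against 40.0 ± 9.0, and Tmem108 40.6 ± 16.3 against 39.8 ± 9.0 (SD, n = 8). Lcn4 averaged 55.9 CPM ± 16.8 with 1 UMI against 52.2 ± 11.4 with 0. Fam241a was lower with 1 UMI in 8 of 8 libraries (116 CPM ± 46.2 against 129 ± 45.2). These SDs are between libraries and not of the difference within a library. Ggt1 was lower with 1 UMI in 7 of 8 libraries (31.5 CPM ± 9.12 against 34.8 ± 5.80), and Cxxc5, Kcna2 and Trnp1 each in 6 of 8. Cxxc5 was at 33.2 ± 4.84 against 35.8 ± 4.38 and Kcna2 at 13.8 ± 4.74 against 16.7 ± 5.55. Cells with 1 UMI made up 18.2% to 36.6% of Ccl5-positive CD8 cells.

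At 5 or more Ccl5 UMIs the 8 genes other than Plac8 were below the level of cells with 0 in 8 of 8 libraries. For Trnp1 this rests on 0 to 2 UMIs there in each library other than PPCA day 4. Cxxc5 went from 35.8 CPM ± 4.38 at 0 UMIs over 21.5 ± 5.00 at 2 to 4 UMIs to 7.83 ± 2.62 at 5 or more (SD, n = 8). Ggt1 ended at 7.50 ± 2.87, Tmem108 at 7.48 ± 3.76, Kcna2 at 3.77 ± 2.53, Adgrg5 at 15.5 ± 2.64, Lcn4 at 18.0 ± 7.77 and Fam241a at 54.2 ± 15.2. The naive transcription factor gene Lef1 followed the same course, from 721 CPM ± 58.7 to 195 ± 36.8, and Gzmk the opposite one, from 0.67 ± 0.45 to 182 ± 56.5.

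Plac8 had another shape. It averaged 76.3 CPM ± 22.6 at 0 UMIs, 84.6 ± 28.5 at 1, 104 ± 38.4 at 2 to 4 and 46.7 ± 22.1 at 5 or more (SD, n = 8). Cells with 2 to 4 Ccl5 UMIs were above cells with 0 in 8 of 8 libraries, and cells with 5 or more were below them in 7 of 8. The 2-to-4 value rests on 337 Plac8 UMIs in all.

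**Figure D2:**
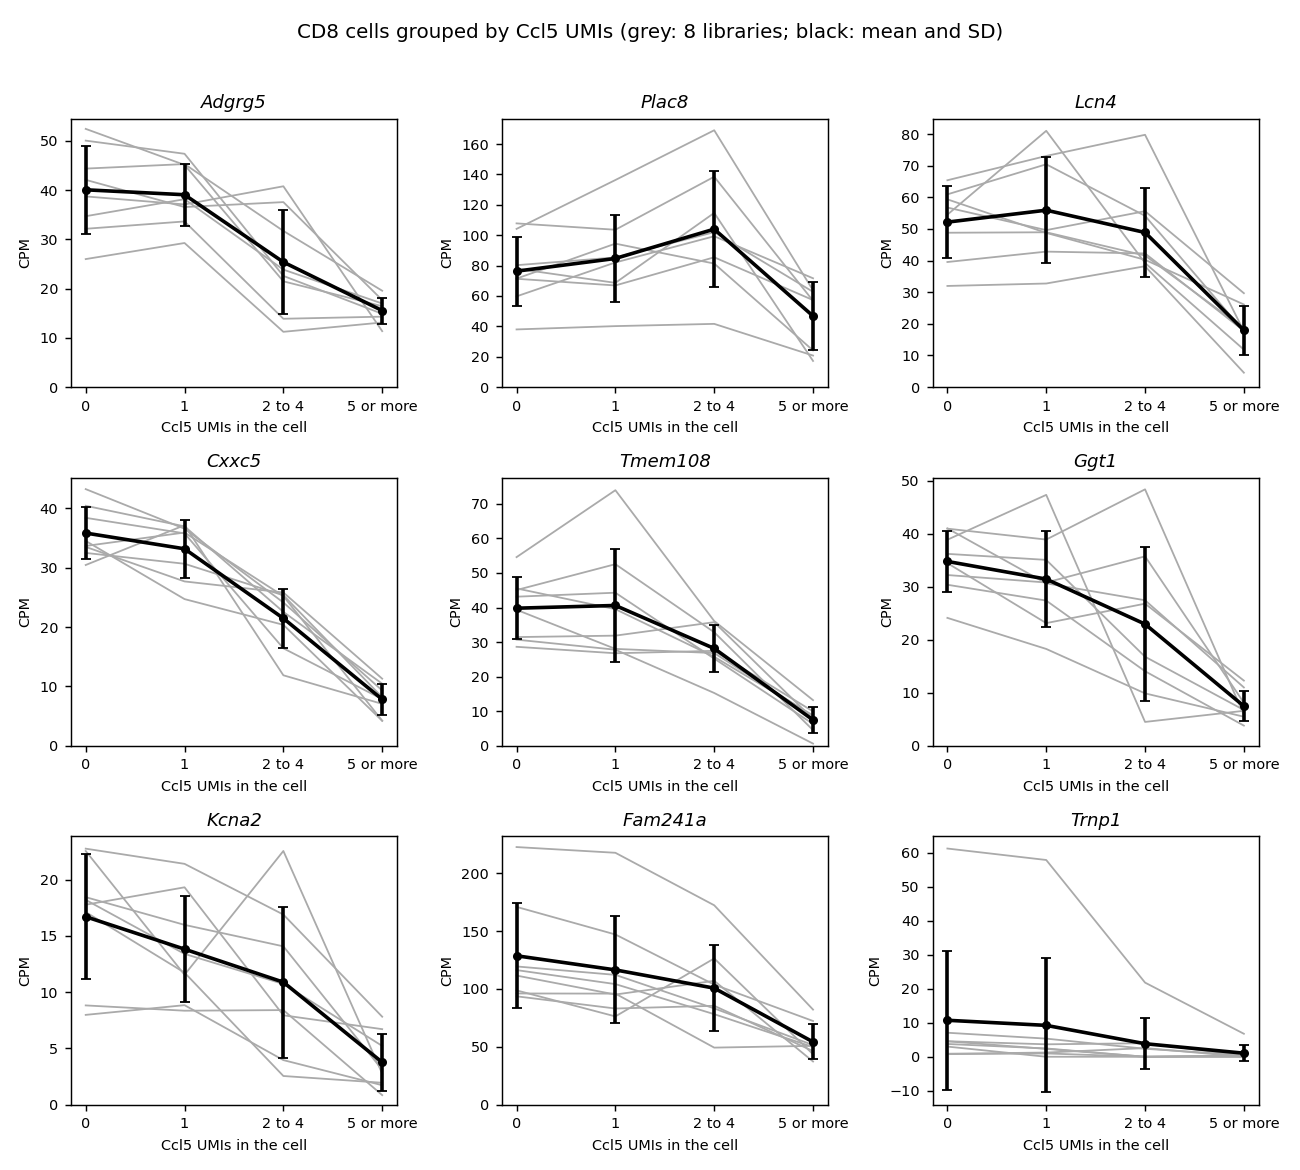
Level of each gene in CPM in CD8 cells with 0, 1, 2 to 4 and 5 or more Ccl5 UMIs. Grey lines are the 8 libraries and the black line is their mean with its SD. The means of all 9 genes are lower at 5 or more UMIs than at 0, and Plac8 peaks at 2 to 4 (mean 104 CPM).

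The authors' deposited table of cluster markers lists 7 of the 9 genes, each in its CD8 TCM cluster and in no other of its 7 clusters. In the authors' deposited table Fam241a had a log2 fold change of 0.99, with detection in 51.5% of cluster cells, and Plac8 one of 0.75 (26% of cells). The authors' deposited table gives smaller log2 fold changes for Lcn4 (0.58), Tmem108 (0.50), Adgrg5 (0.48), Cxxc5 (0.43) and Ggt1 (0.39). Kcna2 and Trnp1 are not among its 88 genes of that cluster, and the table holds only genes detected in at least 10% of a cluster.

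Genes with the most similar levels were ranked by the Pearson correlation of log2(CPM + 1) over 24 values (8 libraries in 3 subsets), which share their libraries and their depth, span the subsets by which the genes were picked, and are a description. The nearest gene was another of the 9 for Adgrg5 and Cxxc5 (each other, r = 0.98), Lcn4 (Cxxc5, 0.98), Tmem108 (Cxxc5, 0.98), Kcna2 (Ggt1, 0.95) and Fam241a (Tmem108, 0.92). Plac8 was nearest to Cd8a (0.98), Cd8b1 (0.98) and Ehd1 (0.98), but Cd8a and Cd8b1 define the subsets and are 0 in CD4 cells by construction, which fixes a high value for a gene near 0 there. Ggt1 was nearest to Ccr9 (0.97), a chemokine receptor gene that was itself above Ccl5-positive cells (log2 ratio 1.68 ± 0.42) and CD4 cells (4.88 ± 0.29). Next were Cd79b (0.98) and Ehd1 (0.98) for Adgrg5, and Stx2 was among the 3 nearest for Tmem108, Ggt1 and Kcna2 (0.95, 0.95 and 0.93). Trnp1 had no close match, the highest being Gas5 at 0.81. Over the 8 resting values alone the pairs were less alike: r was 0.73 for Adgrg5 and Cxxc5, 0.52 for Lcn4 and Cxxc5, 0.39 for Tmem108 and Cxxc5, 0.61 for Kcna2 and Ggt1 and 0.23 for Fam241a and Tmem108. Kcna2 and Fam241a, which differed on day 4 in opposite directions, had an r of -0.90.

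Under PPCA none of the 9 genes passed the threshold in resting CD8 cells with harvest day as a factor, while Trnp1 and Plac8 passed it under alternatives given with their values. With harvest day as a factor, the edgeR quasi-likelihood test with Benjamini-Hochberg adjustment called 0 of 11246 genes (0%). Without adjustment 838 had a p under 0.05, and DESeq2 called 34 genes and limma-voom 1. With no low-count filter edgeR called 191, and with the Y-linked class as a further factor 284, on 1 residual degree of freedom. All 9 genes were tested, 4 with a positive and 5 with a negative log2 fold change, and their median was -0.023, against 0.0019 for all genes.

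Tmem108 was the gene whose 2 arms did not overlap in resting cells (1 of 9, against 5.43% of 13802 genes). On days 2, 3 and 4 it was at 39.3, 31.4 and 43.1 CPM in vehicle and at 45.1, 54.6 and 45.5 CPM in PPCA libraries. PPCA was higher on 3 of 3 days, but the log2 fold change of 0.28 ± 0.12 (SE) failed the correction (adjusted p = 0.660 by edgeR).

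Plac8 was at 80.2, 71.3 and 71.4 CPM in vehicle and at 108, 59.7 and 37.9 CPM in PPCA libraries, higher under PPCA on day 2 and lower on days 3 and 4. Its log2 fold change was -0.33 (SE 0.20, edgeR adjusted p = 0.751), and a fit with the Y-linked class as a further factor gave the same value with an adjusted p of 0.0267 on 1 fewer residual degree of freedom. Ggt1 was at 34.5, 32.2 and 36.2 CPM in vehicle and at 30.4, 38.9 and 24.1 CPM in PPCA libraries, and the edgeR estimate was -0.24 ± 0.13 (log2, SE) with an adjusted p of 0.722. The arms of both genes overlapped.

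Adgrg5 averaged 37.7 CPM ± 13.5 in vehicle and 41.4 ± 8.97 in PPCA libraries (SD, n = 3), Lcn4 56.9 ± 2.43 and 58.4 ± 8.59, and Cxxc5 36.8 ± 5.57 and 36.4 ± 5.27. Kcna2 averaged 14.9 CPM ± 5.30 and 16.3 ± 7.52, and Fam241a 128 ± 39.3 and 139 ± 72.3 (SD, n = 3). Each of these differences was smaller than the SD within an arm, but that SD also holds the differences between days, which the fit takes out. The edgeR log2 fold changes of these 5 genes lay between -0.087 (Cxxc5, SE 0.097) and 0.11 (Adgrg5, SE 0.14), with adjusted p-values of 0.871 and more.

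Among related genes, 0 of 14 tested naive and quiescence genes, 0 of 15 effector CD8 genes, 0 of 10 glutathione genes, 0 of 10 CXXC proteins, 0 of 5 potassium channels and 0 of 3 adhesion GPCRs and lipocalins were called by edgeR in resting cells under PPCA. Their median log2 fold changes lay between -0.074 (effector CD8) and 0.097 (potassium channels).

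In Ccl5-positive CD8 cells edgeR called 2 of 10131 genes (0.0197%; 687 had p under 0.05 before adjustment), the interferon-induced Ifit3 and the ribosomal Rps15, and none of the 8 genes tested. Trnp1 was too low to be tested and passed with no low-count filter (edgeR adjusted p = 6.03e-05). It had 3, 10 and 1 UMIs in vehicle and 10, 2 and 152 in PPCA libraries of days 2, 3 and 4. On day 3 it was lower under PPCA (log2 ratio -0.88). DESeq2 called 25, limma-voom 2, edgeR with no low-count filter 137 and edgeR with the Y-linked factor 152. Ggt1 had the largest change of the 8: it was at 16.0, 19.1 and 16.3 CPM in vehicle and at 9.78, 18.6 and 8.29 CPM in PPCA libraries on days 2, 3 and 4. It was lower under PPCA on 3 of 3 days, though nearly level on day 3, and the edgeR estimate was -0.65 ± 0.20 (log2, SE) with an adjusted p of 0.559. Kcna2 was also lower on 3 of 3 days, at 6.74, 6.89 and 3.27 CPM under PPCA against 7.49, 11.4 and 3.83 in vehicle (log2 fold change -0.46, SE 0.27, edgeR adjusted p = 0.800). The arms overlapped for 9 of 9 genes, while 6.13% of 12796 genes did not overlap.

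In CD4 cells edgeR called 0 of 11698 genes (0%; 815 had p under 0.05 before adjustment), DESeq2 34 and limma-voom 0. With no low-count filter edgeR called 128 in CD4 cells, and with the Y-linked factor 92. Adgrg5, near its floor there, was at 1.25, 0.76 and 0.55 CPM in vehicle and at 2.13, 1.67 and 1.60 CPM in PPCA libraries. It was higher under PPCA on 3 of 3 days with arms that did not overlap (5.59% of 14685 genes did not), and its log2 fold change was 1.05 (SE 0.33, edgeR adjusted p = 0.684). This rests on 52 UMIs in the vehicle and 76 in the PPCA libraries. The arms of Trnp1 did not overlap either (2 of 9 genes in all), but on 1, 0 and 0 UMIs in vehicle and 2, 3 and 120 in PPCA libraries. It was too low to be tested and passed with no low-count filter (edgeR adjusted p = 9.36e-07). Plac8 was lower on 3 of 3 days, on 75 and 35 UMIs (log2 fold change -0.72, SE 0.39, edgeR adjusted p = 0.755). Lcn4, Cxxc5, Tmem108 and Fam241a were also higher under PPCA on 3 of 3 days, Fam241a by as little as 0.0064 on the log2 scale, and Kcna2 was lower on 3 of 3, and none of them passed the threshold.

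**Figure D3:**
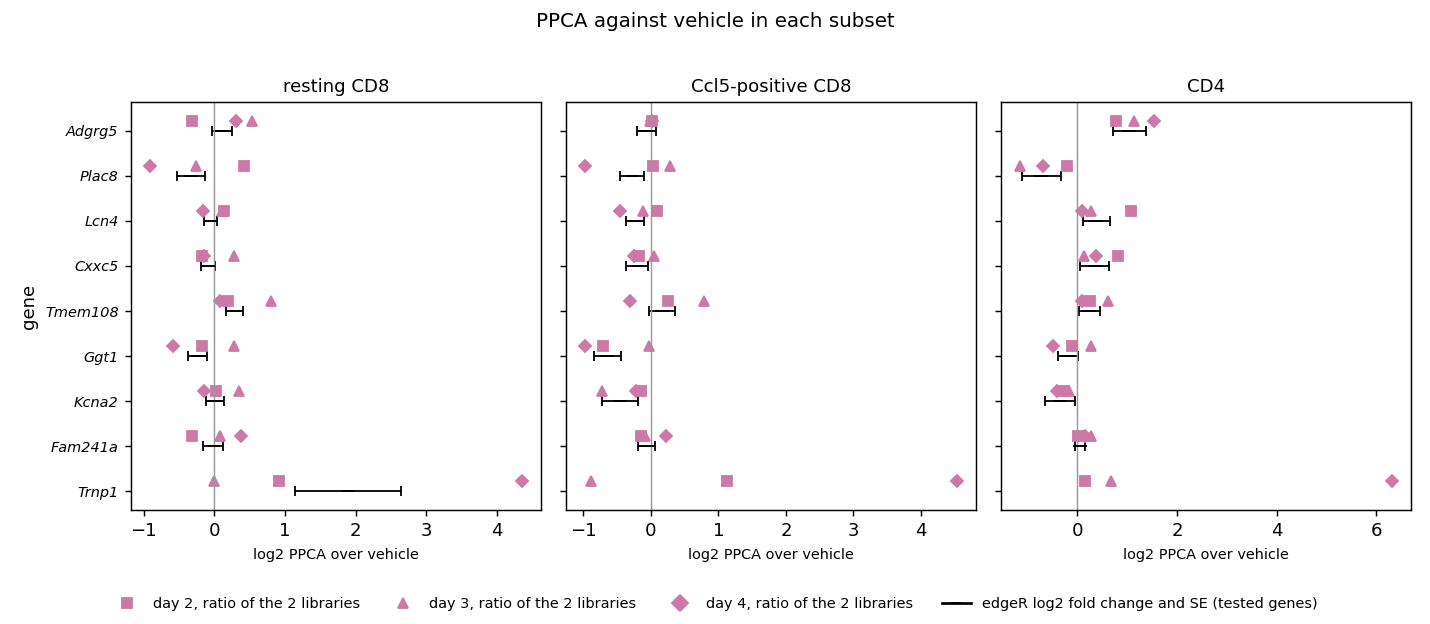
PPCA over vehicle on the log2 scale (horizontal axis) for each gene in resting CD8, Ccl5-positive CD8 and CD4 cells. Coloured points are the ratios of the 2 libraries of a day, with counts under 3 UMIs raised to 3, and black bars are the edgeR log2 fold change and its SE, absent where a gene was not tested. Most points lie near 0, Tmem108 is above 0 on 3 of 3 days in resting cells, and Trnp1 stands out on day 4 only, at 4.35 in resting cells.

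Whether PPCA acted differently on resting and Ccl5-positive CD8 cells was tested within libraries. The edgeR test called 0 of 11151 genes (0%; 439 had p under 0.05 before adjustment), and DESeq2 and limma-voom called 0 each. The difference of the log2 fold changes, resting minus Ccl5-positive, lay between 0.022 (Plac8) and 0.54 (Kcna2) for the 9 genes, with a median of 0.18 against 0.0083 for all genes. The smallest unadjusted p was 0.0224 for Ggt1 (difference 0.46, SE 0.18), and the edgeR adjusted p was 1.00 for each of the 9 genes. The sign of Plac8 turned under 6 alternatives and those of Adgrg5 and Trnp1 under others. Cells with 1 Ccl5 UMI made up 21.3%, 35.1% and 27.9% of Ccl5-positive cells in vehicle and 20.8%, 28.0% and 18.2% in PPCA libraries of days 2, 3 and 4. With Ccl5-positive cells redefined by 2 or more UMIs the difference was 0.79 for Ggt1 and 0.53 for Kcna2.

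The share of resting cells among CD8 cells was compared by an exact sign-flip test, which cannot reach 0.05 with 3 pairs. Ccl5-negative cells were 64.4%, 80.2% and 78.3% of CD8 cells in vehicle and 54.1%, 83.3% and 64.3% in PPCA libraries on days 2, 3 and 4. The difference of the means was -7.03 percentage points, with PPCA higher on 1 of 3 days (exact two-sided sign-flip p = 0.5, where 0.25 is the smallest that 3 pairs allow).

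The 2 day 4 libraries stood apart for Fam241a and Kcna2 in both arms, so day 4 was set against days 2 and 3 with treatment held as a factor, a comparison chosen after these values were seen. The values of these 2 genes prompted it, so theirs are given as a description with no test. Many genes changed: edgeR with Benjamini-Hochberg adjustment called 2061 of 11587 in resting CD8 (17.8%), 1208 of 10467 in Ccl5-positive CD8 (11.5%) and 1691 of 12046 in CD4 cells (14%). Of the 7 other genes, 0 of 7 tested were called in resting cells, 1 of 6 in Ccl5-positive cells and 0 of 6 in CD4 cells. There was 1 library per arm and day, so day 4 as a time and day 4 as a harvest and its handling cannot be told apart.

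Fam241a was higher on day 4 in each subset. In resting cells it was at 119 and 96.1 CPM on day 2 and at 93.6 and 98.7 on day 3 (vehicle and PPCA), and at 171 and 223 on day 4. The day 4 libraries were above all others, also in Ccl5-positive cells (98.0 and 114 against at most 73.2 CPM) and in CD4 cells (34.8 and 38.5 against at most 22.6 CPM). The log2 difference was 1.14 (SE 0.14) in resting, 0.88 (SE 0.13) in Ccl5-positive and 1.10 (SE 0.10) in CD4 cells.

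Kcna2 was lower on day 4 in CD8 cells. In resting cells it was at 18.2 and 18.5 CPM on day 2, 17.8 and 22.6 on day 3 and 8.83 and 7.98 on day 4 (vehicle and PPCA). The log2 difference was -1.01 (SE 0.14) in resting, -1.06 (SE 0.30) in Ccl5-positive and -0.71 (SE 0.33) in CD4 cells. Of 5 other potassium channel genes tested in resting cells, 2 were called (17.8% of all genes were), both lower on day 4: the T cell channel genes Kcna3 (-1.12, SE 0.24, edgeR adjusted p = 0.0163) and Kcnn4 (-0.48, SE 0.10, edgeR adjusted p = 0.0123).

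Plac8 fell in Ccl5-positive cells on day 4 (-0.85, SE 0.20, edgeR adjusted p = 0.0218), from 63.5 to 76.8 CPM on days 2 and 3 to 50.8 and 25.8. Without the PPCA library of day 4 the value was -0.36 (adjusted p = 0.259), with day 4 then 1 vehicle library assumed to vary like the other groups, and without the 5% of cells with most UMIs it was -0.45 (adjusted p = 0.221). This was 1 of 6 genes, where 11.5% of all genes were called. In resting cells Trnp1 was nearest to the threshold (edgeR adjusted p = 0.0517), and Adgrg5 was next (-0.43, SE 0.15, edgeR adjusted p = 0.0787). Adgrg5 passed with no low-count filter (edgeR adjusted p = 0.00358) and without the PPCA library of day 2 (-0.60, adjusted p = 0.00838). The median over the 9 genes in resting cells was -0.047, against -0.014 for all genes.

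Genes of the dissociation and early response list, which rise when tissue is processed and when cells are stimulated, were also higher on day 4. Their summed level in resting cells was 3556 and 5180 CPM on day 4 against 653 to 1495 CPM on days 2 and 3, and 8 of 10 were called higher, where 17.8% of all genes were called in either direction (Fos, Fosb, Jun, Junb, Egr1, Atf3, Dusp1 and Ier2). In the Ccl5-positive cells the sum was 3398 and 5530 CPM against 701 to 1873, and in CD4 cells 4473 and 7633 against 1106 to 2551. Pancreas RNA summed to 99.5 and 35.5 CPM in resting cells on day 4 (vehicle and PPCA) and to 7.79 to 41.7 CPM on days 2 and 3. In Ccl5-positive cells it was 39.8 and 87.8 CPM on day 4, within the 15.7 to 106 CPM of days 2 and 3, and in CD4 cells 30.1 and 50.0, below the 67.2 to 180 CPM of days 2 and 3. The part of either in the changes of Fam241a, Kcna2 and Plac8 was not tested.

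**Figure D4:**
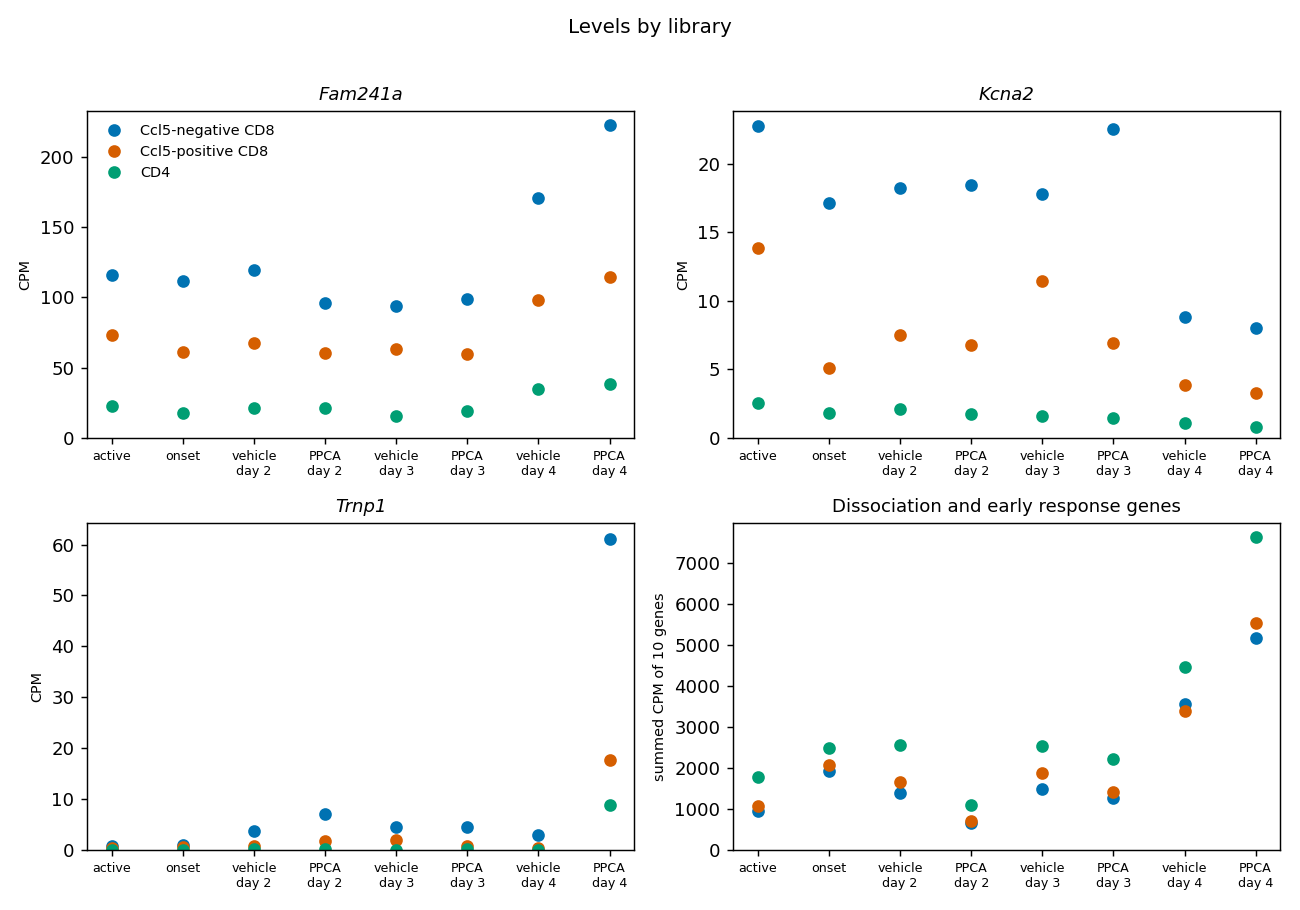
Levels by library in resting (blue) and Ccl5-positive CD8 (orange) and CD4 cells (green), in CPM from 0, for Fam241a, Kcna2 and Trnp1 and for the sum of 10 dissociation and early response genes. Both day 4 libraries are highest for Fam241a and for the summed list and lowest for Kcna2, and Trnp1 is high in the PPCA library of day 4 alone.

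Trnp1 was high in the PPCA library of day 4 and in no other. There 786 of 3249 resting CD8 cells (24.2%) had a Trnp1 UMI, 140 of them at least 2 and none more than 5, against 0.541% to 3.20% of resting cells in the other 7 libraries. In the same library the share was 6.88% in Ccl5-positive CD8, 3.40% in CD4 cells, 4.11% in cells with neither coreceptor and 17.4% in cells with both. At 2000 UMIs per cell 11.4% of its resting cells had a Trnp1 UMI. The vehicle library of the same day had 2.99 CPM in resting cells.

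The edgeR log2 fold change of Trnp1 between arms in resting cells was 1.89 (SE 0.75, adjusted p = 0.646), and without day 4 it was 0.24. It passed the threshold in edgeR with no low-count filter (1.89, adjusted p = 2.07e-21). With the Y-linked class as a further factor it also passed (1.53, edgeR adjusted p = 0.000411), on 1 residual degree of freedom. Both fits include the PPCA library of day 4, at 61.2 CPM in resting cells against 7.06 and 4.54 in the other PPCA libraries. For day 4 against days 2 and 3 the log2 fold change of Trnp1 was 2.26 (SE 0.68, edgeR adjusted p = 0.0517), and -0.43 without the PPCA library of day 4. It passed with no low-count filter (edgeR adjusted p = 3.37e-38), without the 5% of cells with most UMIs (0.0384) and without the vehicle library of day 2 (2.45, adjusted p = 0.00300) or day 3 (2.86, 0.0256). Without the vehicle library of day 4 the value was 3.69, but day 4 is then the PPCA library alone, in which Trnp1 was high, and this is no test. In the sum of the 3 subsets of that library Trnp1 was at 32.3 CPM against 0.25 to 2.26 in the others. Of the genes beside it in the annotation, Nudc was at 109 CPM against 95.8 to 150 in the others, and Kdf1 at 0.79 against 0.10 to 0.47, on 30 UMIs. Within its resting cells at 2000 UMIs, the 367 cells with Trnp1 and the 2843 without held 13.7 ± 5.43 and 13.1 ± 5.34 (SD over cells) naive and quiescence UMIs, 1.96 ± 1.63 and 1.76 ± 1.73 effector CD8 UMIs and 10.2 ± 5.58 and 10.5 ± 6.24 dissociation and early response UMIs.

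Active and onset diabetes were measured in 1 library each, so their difference has no replicate check, and the 95% intervals below cover counting error only. In resting cells 0 of the 9 genes differed by over 2-fold (6.15% of 12057 genes did), and their median log2 ratio of active to onset was 0.060, against 0.016 for all genes. Plac8 was at 104 CPM in active and 77.9 in onset (log2 ratio 0.42, interval 0.28 to 0.55). In Ccl5-positive cells 2 of 8 genes with enough UMIs differed by over 2-fold, against 7.29% of 11305 genes, and the median log2 ratio was 0.70 against -0.053 for all genes. These were Plac8 at 101 and 41.0 CPM (1.30, interval 1.07 to 1.54) and Kcna2 at 13.9 and 5.10 CPM (1.44, interval 0.78 to 2.15). Cells with 1 Ccl5 UMI were 36.6% of the Ccl5-positive cells in active and 26.6% in onset, and the summed levels also differed: 2821 and 4563 CPM for effector CD8 genes, 3693 and 3216 for naive and quiescence genes, and 1063 and 2061 for dissociation and early response genes. Their part in this was not tested. In CD4 cells 2 of 8 genes differed by over 2-fold, against 7.19% of 13192 genes: Adgrg5 on 30 and 18 UMIs (log2 ratio 1.26, interval 0.37 to 2.19) and Plac8 on 14 and 10 UMIs (1.01, interval -0.27 to 2.34, which includes 0).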

How the data were processed

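UMI counts per gene and cell were deposited by the authors as unnormalised matrices of 8 libraries, made with cellranger 6.0.0 per the file headers, while the submitters' processing notes name Cell Ranger 6.1.2 and Seurat. The authors' deposited marker table gives p-values, log2 fold changes and the fraction of cells with a gene, which were copied as percent; its test and cells are not stated, and its p-values were not used.

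Cells were kept with at least 500 genes, under 10% mitochondrial UMIs, at least 2 UMIs over 6 T cell genes and at most 1 over 6 B and myeloid genes. No doublet caller was run: cells with both coreceptors or with B and myeloid UMIs were set aside, and leaving out the 5% of cells with most UMIs was an alternative. UMIs were summed per library and subset. CPM are over all UMIs of a sum, and intervals cover counting error only, Poisson for counts and Clopper-Pearson for shares. Ratios raise counts under 3 to 3.

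Sums of the 3 vehicle and 3 PPCA libraries were fitted across all genes with edgeR 4.0.16 (R 4.3.3, TMM, filterByExpr, quasi-likelihood, harvest day and treatment as factors), adjusted by Benjamini and Hochberg at 0.05. SEs are the log2 fold change over the root of the F statistic. Active and onset entered no fit. The labels give the day, and same-day libraries deviated together (correlations across genes of 0.265, 0.424 and 0.474 for days 2, 3 and 4 in resting cells). Alternatives were DESeq2 1.42.0, its size factors, limma-voom 3.58.1, no low-count filter, no day block, a Y-linked factor, looser cell filters, Ccl5-positive at 2 UMIs, thinning to 2000 UMIs and leaving out days or libraries. On simulated counts with 200 genes changed 2-fold, the resting-cell treatment fit over 11246 genes recovered 79% with 24 false calls, and its day 4 fit over 11587 genes 78% with 12. In both, false calls were a larger share of the calls than the 0.05 set.

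The 9 genes and the gene lists were chosen with earlier results of these data known. All 9 are named, with list genes past the threshold of a treatment fit, the 3 genes most correlated with each, and marker, sex-linked and related genes as checks; Tet1, Ggt5, Gclc, the Trnp1 neighbours and the day 4 list genes were chosen after their values were seen.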

Additional observations from a re-analysis of the deposited data

How the results depend on the processing

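In CD4 cells Adgrg5, Plac8 and Trnp1 rest on few UMIs, which limits their precision. Of 368 alternative values of single fold changes, 335 kept their direction and side of the threshold, as did 51 of 84 counts within 1.5 times. Counts of genes called under PPCA in resting, Ccl5-positive CD8 and CD4 cells were 0, 2 and 0. DESeq2 gave 34, 25 and 34, no low-count filter 191, 137 and 128, and the Y-linked factor 284, 152 and 92. The cause of these differences was not tested. In resting cells limma-voom called 1 and leaving out the cells with most UMIs gave 2. In Ccl5-positive cells DESeq2 size factors gave 1, leaving out the cells with most UMIs 4, and Ccl5-positive at 2 UMIs 1. With no replicate block for day, 0 were called in Ccl5-positive cells, and Fam241a turned to 0.091 in resting cells; the block changed no other call. Leaving out each day gave 0 to 102 calls in resting, 2 to 134 in Ccl5-positive and 0 to 70 in CD4 cells, in each case most without day 4, and -0.023 to 0.33 for Adgrg5, -0.084 to 0.075 for Kcna2 and -0.23 to 0.14 for Fam241a in resting cells. For the difference between subsets, no low-count filter called 22 genes and leaving out days 0 to 1. Plac8 turned to -0.019 with DESeq2, -0.0095 without the filter, -0.055 with no replicate block for library and -0.053 with Ccl5-positive at 2 UMIs, Trnp1 turned to -0.52 with no library block, and leaving out days gave -0.052 to 0.41 for Adgrg5, -0.22 to 0.23 for Plac8 and -0.84 to 0.66 for Trnp1. For day 4 against days 2 and 3, all of whose alternatives were added after seeing the data, DESeq2 called 1205 in resting and 496 in Ccl5-positive cells, no filter called 1826 in Ccl5-positive cells, and leaving out single libraries gave 515 to 2631, 463 to 1401 and 672 to 2138 calls in resting, Ccl5-positive CD8 and CD4 cells, lowest without PPCA day 3, PPCA day 4 and PPCA day 3. Trnp1 ranged from -0.43 to 3.69. Of 207 alternative ratios between subsets, 196 moved by less than their SD over libraries; with Ccl5-positive at 2 UMIs the resting to Ccl5-positive ratio grew, for Cxxc5 to 1.95 and for Tmem108 to 2.14. The share of resting cells kept its direction in 8 of 8 alternatives.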
